A study of Zea mays with 4 samples.

Results

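Reads on genes for the entry of sucrose into glycolysis were compared in the root tips of maize (Zea mays). Read counts measure neither enzyme amount nor the flow of sucrose through a route. The 5 genes, of the 48174 in the deposited count table, were the sucrose synthase genes sus1 (GeneID:542247) and sh1 (GeneID:542365), the invertase gene IVR1 (GeneID:100383472), and the glycolytic genes aldolase1 (GeneID:542261) and eno1 (GeneID:732811). They were chosen by name for their place in the pathway, with earlier results of these data known. All 5 were found by NCBI gene number. Seedlings of B73, the inbred line behind the maize reference genome, grew from seed at 28 °C in continuous light and were taken at 3 days. Whole seedlings were swirled gently in water for 2 h at 28 °C, and the last 1 mm was cut from primary and from seminal roots and collected together, so the root types cannot be told apart. The series has 4 RNA-seq libraries of this 1 group, labelled as biological replicates, with no dry or untreated group. No separate cultures or seed batches are named, so the spread below is the spread between these samples and may be partly technical.

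Sucrose reaches a growing root tip through the phloem and is cleaved there by either of 2 enzyme families. Sucrose synthase splits it reversibly with UDP into UDP-glucose and fructose, which conserves bond energy and supplies UDP-glucose for cell wall and starch synthesis. Invertase splits it irreversibly into glucose and fructose, in the vacuole, in the cell wall space or in the cytosol depending on the isoform. The hexoses enter glycolysis after phosphorylation, aldolase splits fructose 1,6-bisphosphate, and enolase forms phosphoenolpyruvate near the end of the pathway. In maize, sh1 (Shrunken1) is best known from the endosperm and responds to low oxygen and to carbohydrate depletion, sus1 is induced by sugar supply, and Ivr1 and Ivr2 are soluble vacuolar acid invertase genes with opposite sugar responses.

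The libraries held 26131723, 24246104, 26829395 and 23385589 counts for replicates 1 to 4. Levels are given as CPM (counts per 1000000 of the library total), and a gene counts as detected where each of the 4 libraries reaches 1 CPM. All 5 genes were detected, as were 43.5% of all 48174 genes. CPM is not divided by transcript length, since no exon lengths were used here, and a longer transcript yields more reads per molecule. Sucrose synthase is a longer protein than aldolase or enolase, so the order of read counts between them is not an order of transcript numbers. In a bulk sample, a change in the number of cells that express a gene and a change in RNA per cell cannot be told apart. All 6 dividing root tip markers fixed for this tissue (pcna1, MCM6, RNRL1, SCR, PIN1a and cycD2) were detected and summed to between 836 and 900.2 CPM per library. The 6 matched leaf, seed and secondary wall markers of 8 named (CAB1, ssu1, bz15, cesa10, cesa11 and cesa12) summed to between 1.07 and 1.98 CPM, none was detected in every library, and ssu1 was at 0.

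Of the reads on the 8 listed sucrose-cleaving genes, 3 for sucrose synthase and 5 for acid invertase, sucrose synthase carried 93.4 ± 0.341% (SD, n = 4), and sus1 carried most of those. The gene sus1 stood at 3390, 3783, 4046 and 3859 CPM in replicates 1 to 4 (88586, 91723.5, 108540 and 90237 counts), a mean of 3769 ± 276 CPM (SD, n = 4). Replicate 1 was the lowest and replicate 3 the highest, and they differed 1.19-fold. In every library sus1 was among the 4 genes with the highest counts: at rank 4 in replicate 1 and at rank 3 in replicates 2 to 4. The second isoform gene, sh1, stood at 904, 1076, 1036 and 969 CPM (23613, 26089, 27803 and 22657 counts), a mean of 996 ± 75.9 CPM (SD, n = 4). Replicate 1 was again the lowest, replicate 2 was the highest, and the gene ranked between 36 and 55 of all genes.

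The sus1 and sh1 levels did not overlap: the lowest sus1 value was above the highest sh1 value. Within a library sus1 had 3.75, 3.52, 3.90 and 3.98 times the counts of sh1 in replicates 1 to 4. The log2 ratio was 1.92 ± 0.08 (SD, n = 4) and positive in 4 of 4 libraries. Its SD was larger than the 0.01 that counting error alone gives, with replicate 2, where sh1 was at its highest, at the low end. The third listed sucrose synthase gene, sus2, stood at 2.13 ± 0.323 CPM. Of all reads on listed sucrose synthase genes, 79.1 ± 0.921% fell on sus1, 20.9 ± 0.914% on sh1 and 0.0451 ± 0.00877% on sus2 (SD, n = 4). In replicate 2 the sus1 count was not whole, as can happen where a read is shared between genes, and the sh1 counts were whole in every library. The sucrose synthase genes are similar in sequence, so the split of reads between them carries that uncertainty.

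The invertase gene IVR1 was expressed at a low level. It stood at 7.12, 6.52, 7.49 and 7.06 CPM in replicates 1 to 4 (186, 158, 201 and 165 counts), a mean of 7.05 ± 0.402 CPM (SD, n = 4). The 95% exact Poisson intervals of these values, which cover counting error only, were 6.13 to 8.22, 5.54 to 7.62, 6.49 to 8.60 and 6.02 to 8.22 CPM. All 4 intervals overlap, which is not itself a test of difference. The chi-square test described below did not call the 4 counts different beyond counting error (adjusted p = 0.759). By mean CPM the gene ranked 15356 of 48174, and it was above the median of 5.80 CPM of the 32260 genes with any count and below the median of 17.9 CPM of the 20971 detected genes.

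IVR1 was not the listed invertase gene with the most reads. The other listed vacuolar gene, ivr2, stood at 170, 238, 239 and 206 CPM in replicates 1 to 4, a mean of 213 ± 32.9 CPM (SD, n = 4), and the cell wall invertase gene incw1 at 105, 115, 128 and 130 CPM, a mean of 119.7 ± 11.6 CPM. Both were lowest in replicate 1. In read counts ivr2 exceeded IVR1 23.8, 36.6, 31.9 and 29.1 times in the 4 libraries, and incw1 exceeded it between 14.8 and 18.4 times. IVR1 therefore held 2.10 ± 0.304% of the reads on listed invertase genes, against 62.5 ± 2.99% for ivr2 and 35.4 ± 2.77% for incw1 (SD, n = 4). The cell wall genes mn1 (Miniature1, an endosperm invertase gene) and incw3 had no count in any library, which allows up to 0.115, 0.124, 0.112 and 0.128 CPM in replicates 1 to 4, taken as 3 counts of the total. No neutral invertase and no invertase inhibitor gene could be found by name, so reads for the cytosolic invertase route were not counted.

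**Figure D1:**
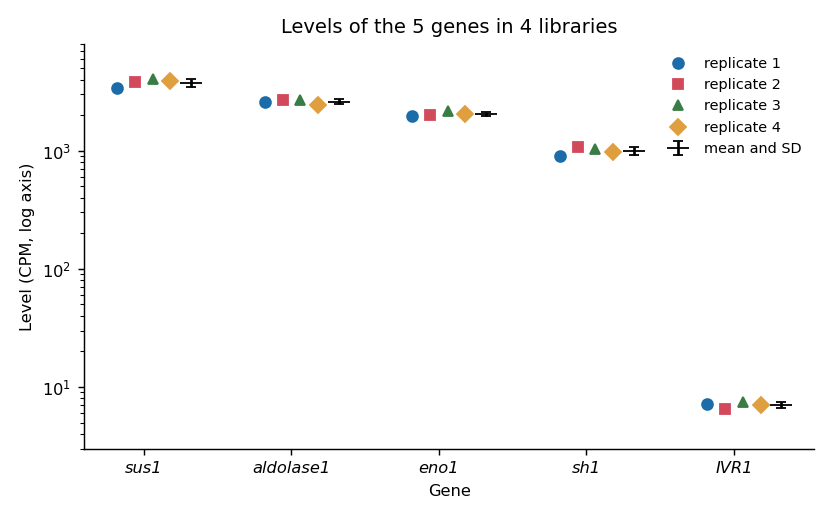
Level of sus1, aldolase1, eno1, sh1 and IVR1 in CPM on a log axis, 1 symbol per replicate library, with the mean and SD over 4 libraries in black. The first 4 genes lie between 904 and 4046 CPM and do not overlap one another, and IVR1 lies between 6.52 and 7.49 CPM.

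The balance of reads between the routes depended on which invertase genes were counted. The summed reads of sus1 and sh1 exceeded those of IVR1 603, 746, 678 and 684 times in replicates 1 to 4, a log2 ratio of 9.40 ± 0.13 (SD, n = 4). Counting error alone gives an SD of 0.11 for this ratio, nearly all of it from the IVR1 counts, so the order of the libraries is not resolved at this depth. Against ivr2 the same sum was 25.3, 20.4, 21.3 and 23.5 times higher (log2 ratio 4.49 ± 0.14), a comparison chosen after the values were seen. Over all 3 listed sucrose synthase genes and all 5 listed invertase genes it was 15.2, 13.5, 13.6 and 14.1 times higher (log2 ratio 3.82 ± 0.08, with 0.02 from counting error). The listed invertase genes held 6.16, 6.90, 6.86 and 6.63% of the reads on these 8 listed genes, with replicate 1 the lowest. All 3 ratios were positive in 4 of 4 libraries, and a two-sided exact permutation of signs over libraries found 2 of 16 sign patterns as extreme (p = 0.125), the smallest share that 4 libraries can give. Each of the 27 ratios computed gave that same p, also after Benjamini-Hochberg adjustment, so none could pass 0.05.

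Both glycolytic genes were among the 12 genes with the highest counts in every library. Aldolase1, for the enzyme that splits fructose 1,6-bisphosphate, stood at 2593, 2704, 2703 and 2422 CPM in replicates 1 to 4 (67757, 65551, 72531 and 56636 counts), a mean of 2605 ± 133 CPM (SD, n = 4). Replicate 4 was the lowest, and replicates 2 and 3 were level at the top. The enolase gene eno1 stood at 1974, 2002, 2153 and 2036 CPM (51583.5, 48542, 57755.5 and 47614 counts), a mean of 2041 ± 78.5 CPM. Replicate 1 was the lowest and replicate 3 the highest. The eno1 counts of replicates 1 and 3 were not whole, so some of its reads may be shared with another gene. Aldolase1 exceeded eno1 1.31, 1.35, 1.26 and 1.19 times, a log2 ratio of 0.35 ± 0.08 (SD, n = 4) in read counts, and was above it in 4 of 4 libraries.

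The sum of sus1 and sh1 was of one order of magnitude with aldolase1 and with eno1 in read counts, and IVR1 was far below them. The sum of sus1 and sh1 was 1.66, 1.80, 1.88 and 1.99 times aldolase1 in replicates 1 to 4 (log2 ratio 0.87 ± 0.11, SD, n = 4). Replicate 1 was lowest for sucrose synthase and replicate 4 for aldolase1, and these were the lowest and the highest of the 4 ratios. Against eno1 the sum was 2.18, 2.43, 2.36 and 2.37 times higher (log2 ratio 1.22 ± 0.07). Replicate 1 was the lowest here as well, and the other 3 libraries lay close together. The log2 ratio of IVR1 was -8.53 ± 0.12 to aldolase1 and -8.18 ± 0.06 to eno1, where counting error alone gives 0.11 for each. For ivr2 the log2 ratio was -3.62 ± 0.21 to aldolase1 and -3.27 ± 0.20 to eno1, where counting error gives 0.02. Both were lowest in replicate 1, at -3.94 and -3.54.

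**Figure D2:**
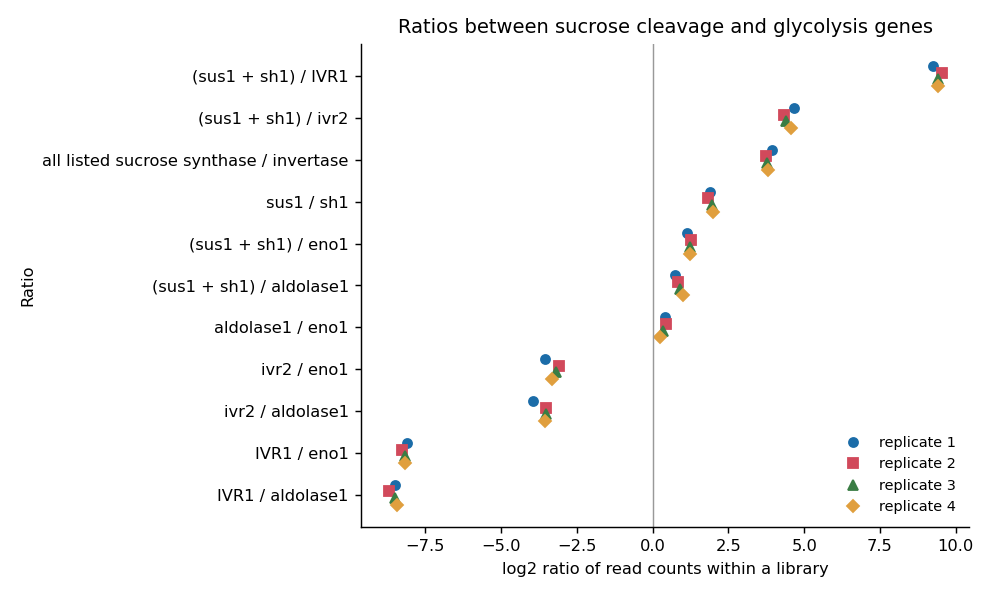
Log2 ratio of read counts between genes or sums of genes within each library (x axis), 1 symbol per replicate, with equal read counts at the grey line. The ratio of sus1 plus sh1 lies near 9.40 to IVR1, near 4.49 to ivr2 and near 3.82 when all listed genes of both families are counted, and the libraries differ little beside these gaps.

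The order of read counts was sus1, aldolase1, eno1, sh1 and IVR1 in each of the 4 libraries. No pair of neighbours in that order overlapped between libraries. The gap was 1.45 ± 0.123 times from sus1 to aldolase1, 1.28 ± 0.0703 times from aldolase1 to eno1, 2.06 ± 0.138 times from eno1 to sh1 and 142 ± 16.3 times from sh1 to IVR1 (SD, n = 4). The gap from sus1 to aldolase1 is small enough that transcript length could change the order, since sucrose synthase is the longer protein. From eno1 to sh1 the longer protein has fewer reads, so dividing by protein length would widen that gap. Whether length could change the order of aldolase1 and eno1 was not tested. The 5 genes together took 0.887, 0.957, 0.995 and 0.929% of all counts in replicates 1 to 4.

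Most other named genes of the pathway were detected. Name patterns gave 36 listed genes, of which 31 were detected, against 43.5% of all genes, and the median of the 36 was 194 CPM, against 0.301 CPM over all genes and 17.9 CPM over detected genes. Named genes are no random sample of all genes, and nothing is read from this difference. The patterns passed over 3 further genes with pathway names: Pgk-2 (1004 ± 24.6 CPM), Pgk-1 (1.00 ± 0.191 CPM) and a gene named enolase (59.4 ± 0.689 CPM). Genes with no conventional name were not covered.

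Fructose and glucose are made usable by kinases and an isomerase, and all 4 listed genes of this step were detected. The fructokinase gene frk2 stood at 711 ± 15.9 CPM and frk1 at 229.9 ± 13.8 CPM (SD, n = 4). The glucose phosphate isomerase gene phi1 stood at 329 ± 26.4 CPM, and hex2, named as a hexokinase gene, at 35.5 ± 1.90 CPM. The summed fructokinase reads were below those of sus1 and sh1, which exceeded them 5.06 ± 0.256 times. The only listed phosphofructokinase gene, pfk1, stood at 17.7 ± 0.862 CPM.

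In lower glycolysis all 9 listed genes were detected, and aldolase1 and eno1 each led the listed genes of their family. The second aldolase gene, aldolase2, stood at 1089 ± 40.8 CPM, and aldolase1 exceeded it 2.39 ± 0.112 times (SD, n = 4). The second enolase gene, eno2, stood at 546 ± 10.3 CPM, and eno1 exceeded it 3.74 ± 0.168 times. The cytosolic glyceraldehyde 3-phosphate dehydrogenase genes gpc4, gpc2, gpc3 and GPC1 stood at 1515 ± 51.7, 1168 ± 9.25, 975 ± 36.0 and 196 ± 9.70 CPM. These isoforms are similar in sequence, and the sources used here do not say how shared reads were divided between them. The sum of sus1 and sh1 was below the sum of the 8 aldolase, enolase and gpc genes (log2 ratio -1.09 ± 0.08), a sum chosen after the values were seen, and so below it in 4 of 4 libraries although it was above aldolase1 or eno1 alone.

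The listed genes of fermentation, a route that regenerates NAD+ when oxygen limits respiration, were all detected, 6 of 6. Their levels ran from 2.86 CPM for pdc2 to 945 CPM for pdc3. The pyruvate decarboxylase genes pdc3 and pdc1 stood at 945 ± 55.8 and 537 ± 62.3 CPM, and pdc2 at 2.86 ± 0.728 CPM (SD, n = 4). The alcohol dehydrogenase gene adh1 stood at 399, 498, 491 and 505 CPM in replicates 1 to 4, and adh2 at 156, 255, 177 and 182 CPM. Replicate 1 was the lowest for both, and replicate 2 was the highest for adh2. The gene named LDH stood at 188 ± 11.7 CPM. No library had roots kept out of water, so these levels cannot show whether there was a response.

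Of the sucrose synthesis and sugar transport genes, 2 of 3 and 3 of 5 were detected. The sucrose phosphatase genes spp1 and SPP2 stood at 38.4 ± 2.00 and 14.0 ± 0.538 CPM, and the sucrose phosphate synthase gene sps1 had 1, 0, 1 and 0 counts. The monosaccharide transporter gene MST1 led transport at 324 ± 34.2 CPM. The sucrose transporter genes sut2 and sut4 stood at 52.8 ± 2.39 and 15.0 ± 0.632 CPM, and sut1, the phloem loading gene of leaves, at 0.186 ± 0.0784 CPM.

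**Figure D3:**
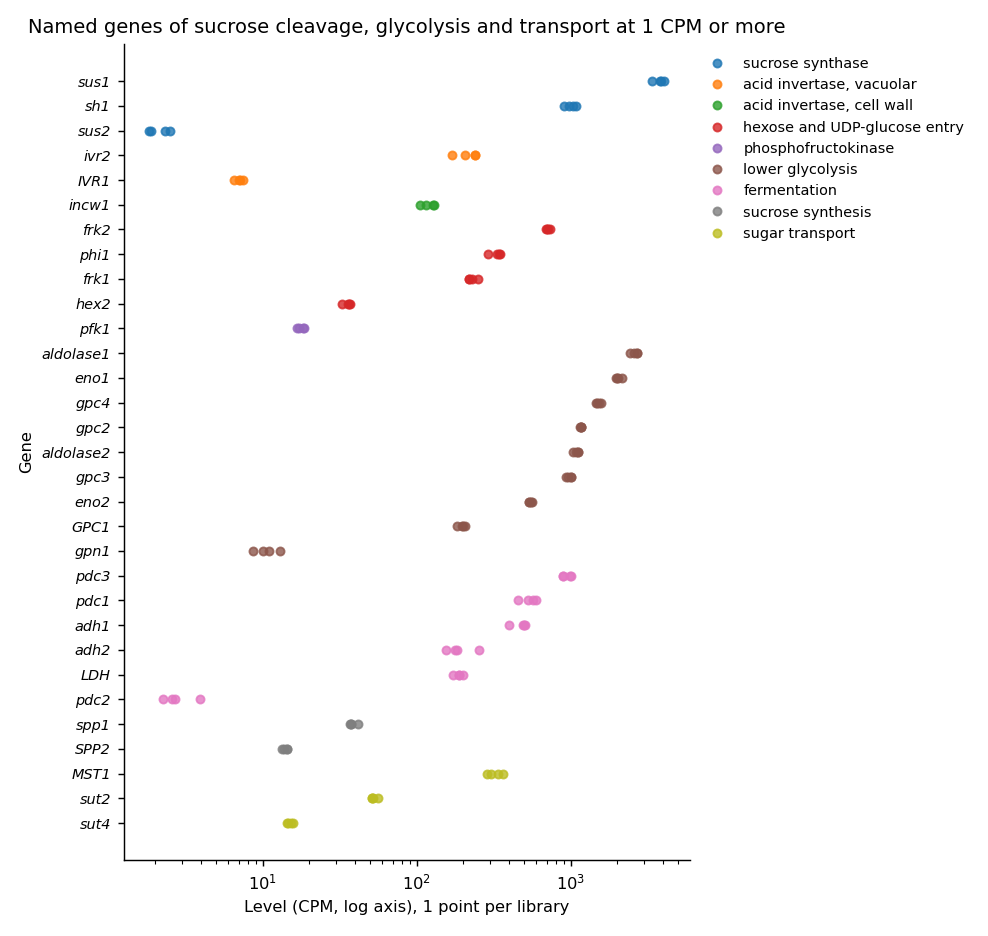
Level in CPM on a log axis of the listed genes with a mean of 1 CPM or more, 1 point per library, coloured by step of the pathway. Among the listed sucrose-cleaving genes sus1 and sh1 lie to the right of ivr2 and incw1, which lie to the right of IVR1 and sus2.

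Replicate libraries differed for the abundant genes by more than counting error. For each of 22752 genes the counts were compared with the library totals by chi-square, with Benjamini-Hochberg adjustment, and 26.0% of them passed an adjusted p of 0.05. Of the 5 genes sus1, sh1, aldolase1 and eno1 passed, and IVR1 did not. The chi-square statistic on 3 degrees of freedom was 1592 for sus1, whose p is too small for the software to hold, 491 for aldolase1 (adjusted p = 2.67e-103), 441 for sh1 (adjusted p = 2.09e-92), 239 for eno1 (adjusted p = 2.45e-49) and 1.74 for IVR1 (adjusted p = 0.759). Such a count follows depth: 70.7% of genes at 100 to 1000 CPM and 40 of 43 genes at 1000 CPM or more passed, against 11.9% of genes at 1 to 10 CPM, where IVR1 lies. Of the 31 listed genes tested 22 passed, or 71.0%, against 26.0% of all genes tested. These listed genes ran from 2.13 CPM for sus2 to 3769 CPM for sus1, so neither that share nor that of 1 level range is a like comparison. A comparison at matched level was not run. The coefficient of variation (CV) was 7.32% for sus1, 7.62% for sh1, 5.11% for aldolase1 and 3.85% for eno1, where counting error gives 0.326, 0.634, 0.392 and 0.442%. For IVR1 it was 5.70% against 7.54% from counting error, so a spread like that of sus1 was not detectable in it at this depth.

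Against genes of like abundance none of the 5 was called more variable, though the CVs of sus1 and sh1 were high for their level. The quasi-likelihood dispersion of edgeR was compared with its trend for the same 22752 genes, and 0.0396% of them (9 genes) were more variable at an adjusted p of 0.05. The dispersion was 3.38 times the trend for sh1 (edgeR adjusted p = 0.892, unadjusted p = 0.0689), 3.20 times for sus1 (edgeR adjusted p = 0.919, unadjusted p = 0.0776), 1.39 times for aldolase1, 0.945 times for eno1 and 0.384 times for IVR1. None of the 5 had an unadjusted p below 0.05, and none was a dispersion outlier in DESeq2. Without replicate 3 the unadjusted edgeR p was 0.0109 for sh1 and 0.0313 for sus1, and without replicate 4 it was 0.0338 and 0.0322. With all genes with a count it was 0.0255 and 0.0233. The adjusted p stayed above 0.05 in each of these. Among the other listed genes adh2 came nearest to a call (edgeR adjusted p = 0.0721), followed by ivr2 (edgeR adjusted p = 0.182). Of the 43 genes at 1000 CPM or more, 3 had a higher CV than sus1, 12 a higher CV than aldolase1 and 19 a higher CV than eno1.

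**Figure D4:**
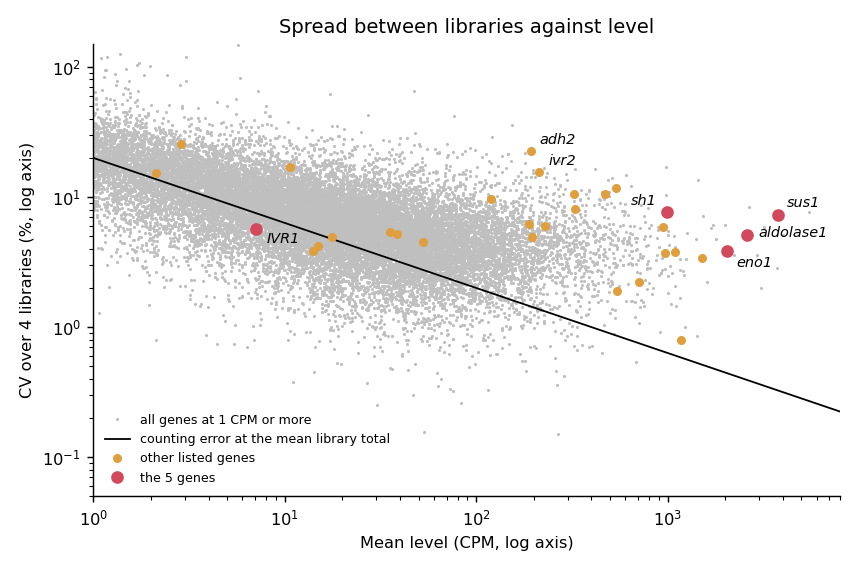
CV over 4 libraries in % against mean level in CPM, both on log axes, for genes at 1 CPM or more (grey), with the counting error line at the mean library total. The genes sus1 and sh1 lie at 7.32 and 7.62%, well above the line, and IVR1 at 5.70% lies just below it.

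Replicate 1 was the lowest library for most of the 28 listed genes at 10 CPM or more. Its log2 deviation from the mean of the 4 libraries was -0.15 for sus1, -0.14 for sh1, -0.05 for eno1, -0.01 for aldolase1 and 0.02 for IVR1. For ivr2 and incw1 it deviated by -0.32 and -0.18. Of the 28 listed genes at 10 CPM or more, 20 (71.4%) were lowest in replicate 1 and 1 was highest in it. Of all 13700 genes at 10 CPM or more, 21.3% were lowest in replicate 1 and 28.2% highest. Replicate 3 was the lowest for 33.7% of all these genes. Without the 4 of the 5 genes at that level, 17 of 24 listed genes were lowest in it. With TMM or DESeq2 size factors the count was 21 of 28, against 23.1% and 23.7% of all genes at that level. The count weighs small and large deviations alike. All listed genes together were lowest in replicate 1, at 1.82% of all counts. The listed lower glycolysis genes together were lowest in replicate 4, at 0.990%, beside 0.992% in replicate 1. Replicate 1 did not have the smallest library total, and its TMM factor was 1.00. The listed genes share a pathway and the same libraries and were partly chosen for their level, so the count is a description, and what differed in replicate 1 was not tested.

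**Figure D5:**
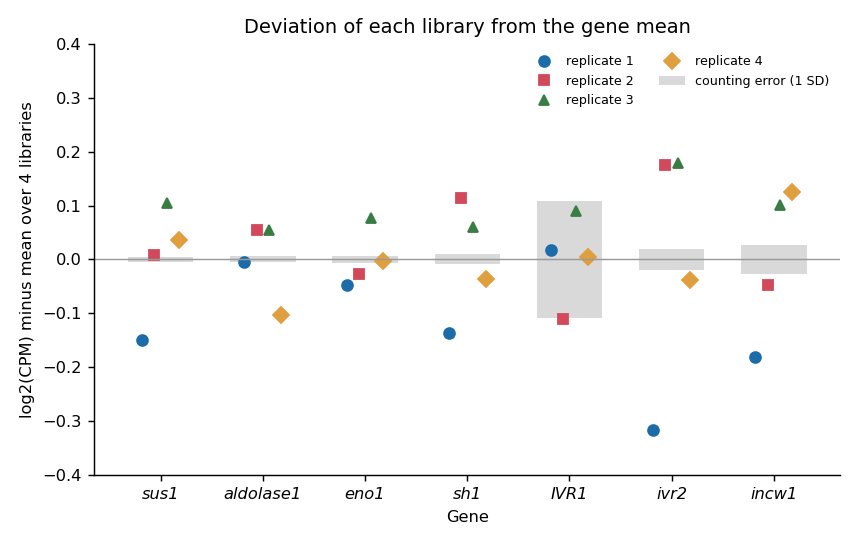
Deviation of log2(CPM) of each library from the mean over 4 libraries, for the 5 genes and for ivr2 and incw1, 1 symbol per replicate, with 1 SD of counting error as a grey band. Replicate 1 is the lowest for sus1, eno1, sh1, ivr2 and incw1, replicate 4 for aldolase1, and the IVR1 points stay near the band.

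The genes most like each of the 5 were taken as those with the smallest root mean square difference in log2(CPM + 1) over the 4 libraries, which weighs level and pattern together. For sus1 they were hsp70-4, a chaperone gene (difference 0.07), grp1 (0.11) and glu1, a beta-glucosidase gene (0.25). For sh1 they were LOC541623, named RCP1 (0.06), Pgk-2, a phosphoglycerate kinase gene (0.07), and gpc3 (0.07). RCP1 stood at 866, 1111, 980 and 952 CPM, so it was lowest in replicate 1 and highest in replicate 2 as sh1 was. For aldolase1 they were the long noncoding RNA gene LOC100384100 (0.09), LOC100282150 (0.21) and the alpha-tubulin gene tua4 (0.24). For eno1 they were LOC542592, named RGP (0.06), tua4 (0.12) and TUA1 (0.19). For IVR1 they were LOC100275602, LOC100281973 and LOC100191186 (0.03 each), but 177 genes lay within 0.1 of IVR1, against 5 for sh1 and 1 each for sus1, aldolase1 and eno1, so the choice among them carries little.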

How the data were processed

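For each library the authors deposited unnormalized estimated counts under NCBI gene numbers. Per the labels' protocols, RNA was extracted with TRIzol, DNase-treated, and made into strand-keeping libraries from 1 µg with UMI adaptors and plant ribosomal RNA removal. HTSeq, STAR 2.7.10b, Trimmomatic (0.36 and 0.39), UMI-tools, SAMtools and deepTools are named in the submitters' processing notes. The sources used here give neither build nor annotation, nor how shared reads and UMIs were handled. Of nonzero values 5.17% to 5.64% were not whole.

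CPM and ratios were computed in Python 3.11.15 from the counts as deposited, and ratios with 0.5 counts added. For count models values were rounded to whole numbers. With edgeR 4.0.16 in R 4.3.3, 22752 genes passed filterByExpr, and their spread was tested by chi-square and by quasi-likelihood dispersion against trend, with TMM scaling in the latter. DESeq2 1.42.0 was an alternative. These tests were tried on simulated data. A RefSeq gene table (assembly Zm-B73-REFERENCE-NAM-5.0) matched 48127 of 48174 genes and served only for names. Lists came from 11 name patterns, 9 of which matched, and 7 matched genes with kinase or other unrelated names were dropped after values were seen. Named genes are the 5 genes, list members at 1 CPM or more up to the 6 highest, and the 3 nearest genes, while eno2, GPC1, mn1, incw3, sps1, sut1, Pgk-1 and a gene named enolase were added after their values were seen. The 5 genes and all lists were chosen with earlier results of these data known.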

Additional observations from a re-analysis of the deposited data

Results flagged for a closer look

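Dixon's test at the 95% level set 1 library apart in 6 of 58 values tried, where chance flags about 1 in 20, or 2.9. Many of these values share genes and are not independent. Replicate 1 stood low in the ratio of sus1 to eno1, with log2 ratios of 0.78 against 0.92, 0.91 and 0.92 in replicates 2 to 4 (gap to range 0.915). It was also low in the ratio of ivr2 to aldolase1, at -3.94 against -3.50, -3.50 and -3.56 (0.867), and for adh1, at 399 CPM against 498, 491 and 505 CPM (0.866). Replicate 3 stood high in the ratio of eno1 to eno2, with log2 ratios of 1.88, 1.86, 2.00 and 1.87 in replicates 1 to 4 (0.844), and for sut2, at 56.4 CPM against 51.3 to 51.9 CPM (0.897). Replicate 4 stood high for spp1, at 41.4 CPM against 37.1 to 37.6 CPM (0.885). None of the 5 genes was flagged by its own CPM.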

How the results depend on the processing

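No paired analysis was possible because the series has a single group. The planned values per coding length were not run, since no exon or protein lengths were used here. TMM or DESeq2 size factors, or leaving out a replicate, moved no level of the 5 genes by more than its SD. When a replicate was omitted, the log2 ratio of sus1 plus sh1 to IVR1 ran from 9.35 to 9.45, the one of sus1 to sh1 from 1.90 to 1.96, and that of aldolase1 to eno1 from 0.32 to 0.39. Against the 8 summed aldolase, enolase and gpc genes, the ratios of sus1 plus sh1 to aldolase1 and to eno1 turned to -1.09, since the sum holds more genes. Genes beyond counting error numbered 3063 to 5229 when a replicate was omitted, against 5919, the lowest without replicate 3. Genes more variable than their abundance numbered 9. That count became 2 under a non-robust prior, 494 when low genes were kept, and 2 to 100 when a replicate was omitted. DESeq2 flagged 174 genes as dispersion outliers, a different measure without an adjusted p, so the numbers are not directly comparable. The calls on the 5 genes did not change in any of the 60 tests repeated. Of the listed genes 31 were detected under every limit tried. With 158 to 201 counts, IVR1 limits every ratio it enters.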
